A study of Mus musculus with 16 samples.

Results

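The thyroid lineage transcription factors are Nkx2-1, Pax8, Foxe1, Hhex and Glis3, chosen by name as 5 of the 21640 genes in the count table. Each symbol matched 1 row, ENSMUSG00000001496.16 for Nkx2-1, ENSMUSG00000026976.16 for Pax8, ENSMUSG00000070990.3 for Foxe1, ENSMUSG00000024986.13 for Hhex and ENSMUSG00000052942.14 for Glis3, and all 5 passed the filter on low counts at both time points. Poly(A) RNA of the whole thyroid was sequenced from 16 male wild-type C57Bl/6J mice, 1 library per mouse. The mice were 8 weeks old when the diets began. Control mice stayed on chow (CD, 4 mice at 3 weeks and 4 at 6 weeks), and the other mice received a high-fat diet with sucrose water (HF+SD, 4 mice at each time point). The comparison asks whether the diet changed the factors that define the thyroid follicular cell, each on its own and relative to each other.

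Thyrocytes are specified in the foregut endoderm by the joint presence of Nkx2-1, Pax8, Foxe1 and Hhex, none of which is particular to the thyroid alone, and the same factors stay on in the adult gland. Nkx2-1 and Pax8 bind the promoter of the thyroglobulin gene and act together there. Glis3 is a zinc finger factor that is needed in the adult gland for the response of iodide transport and hormone synthesis genes to thyroid stimulating hormone (TSH), and its loss causes congenital hypothyroidism.

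Promoter sequences are shown for Glis3, the member with the largest diet effect, and for Nkx2-1, the member whose ratio to the others moved furthest the other way. They come from RefSeq on GRCm38.p6 and run from 250 bases before to 50 bases after the annotated start, 5′ to 3′ on the strand of the gene. Glis3 lies at chr19:28680028-28680327 on the minus strand and Nkx2-1 at chr12:56536859-56537158 on the minus strand. Capitals mark matches to any of the motifs searched.
Glis3: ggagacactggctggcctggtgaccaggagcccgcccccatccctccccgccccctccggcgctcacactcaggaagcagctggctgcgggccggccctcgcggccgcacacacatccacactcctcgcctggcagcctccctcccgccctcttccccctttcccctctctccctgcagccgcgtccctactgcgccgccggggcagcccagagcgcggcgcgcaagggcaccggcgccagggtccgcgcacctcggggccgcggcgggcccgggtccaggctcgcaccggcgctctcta
Nkx2-1: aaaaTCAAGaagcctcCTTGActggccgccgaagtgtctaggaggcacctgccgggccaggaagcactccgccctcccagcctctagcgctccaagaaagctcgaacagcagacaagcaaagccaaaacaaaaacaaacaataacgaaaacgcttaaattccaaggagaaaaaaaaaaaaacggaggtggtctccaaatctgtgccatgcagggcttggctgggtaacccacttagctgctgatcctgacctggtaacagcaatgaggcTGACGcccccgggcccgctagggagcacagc
On both strands, the letters searched were TCAAG (Nkx2-1 core), GTAAACA (forkhead), GTCACGC (Pax), TGACG (a cAMP response core), TGACGTCA (CRE), TGGGGGGT (Glis) and TAATTA (homeodomain). TGACG is also part of the full CRE. Of the 32851 promoters of this length, 40.7% held TCAAG, 20.8% TGACG, 5.29% TAATTA, 3.65% GTAAACA, 2.09% GTCACGC, 1.79% TGACGTCA and 1.53% TGGGGGGT. The Nkx2-1 promoter held TCAAG on the plus strand at bases 5 to 9 and on the minus strand at bases 17 to 21, and TGACG at bases 270 to 274. The promoters of Glis3, Pax8 and Hhex held no match. The Glis3 and Hhex windows were richer in G and C, at 76.3% and 75.7%, than those of Pax8 at 59.3% and Nkx2-1 at 53.7%, where the median over all promoters was 52.7%. They held 32 and 37 CG pairs, against 7 in Pax8, 12 in Nkx2-1 and a median of 7. A match is a match of letters, and the data here hold no measurement of binding.

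The libraries held 30025256 to 48508653 counts, and the number of reads on the 5 factors together was 23560 to 85789 per library, so counting error was small beside the spread between mice. At 6 weeks 3 CD libraries stood apart. A list of 30 skeletal muscle genes took 3.92% of the counts in M43, 16.6% in M45 and 11.9% in M48, against 0.114% in the fourth CD mouse, M22, and 0.140 to 0.467% in the HF+SD mice. At 3 weeks the share was 0.0129 to 0.0260% in all 8 libraries. Of the 29 muscle genes tested at 6 weeks, 28 fell with the HF+SD and none rose, with a median log2 fold change of -5.48. Without M43, M45 and M48 that median was 1.31. With a muscle score in the fit none was called, but the score is made from these same genes, so this outcome was fixed beforehand. The effects on the 5 factors at 6 weeks are therefore given also without those 3 mice and with a muscle score (mean log2 level of the list) as a covariate, and so are the counts of the gene lists where they change. The muscle scores at 6 weeks were 3.54, 8.82, 11.2 and 10.9 in M22, M43, M45 and M48 and 4.25 to 5.90 on the HF+SD. This covariate therefore partly followed the diet, with M22 as the only low CD mouse. Leaving out M43, M45 and M48 leaves 1 CD mouse, which is then assumed to vary like the HF+SD mice. In whole tissue, fewer thyrocytes and less RNA of a gene per thyrocyte cannot be told apart. A list of 12 general epithelial genes was used as a second scale for this reason. The thyroid itself was plain in all 16 libraries, with Tg, the thyroglobulin gene, at 4.73 to 13.6% of the counts at 6 weeks and 26.8 to 29.7% at 3 weeks.

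At 6 weeks 1 of the 5 factors was called, Glis3, where 21.5% of 18249 tested genes were called, 12.0% higher and 9.55% lower (edgeR's quasi-likelihood test, adjusted p under 0.05 over all tested genes). At 3 weeks none of the 5 was called, where 14.9% of 17238 genes were, 9.07% higher and 5.78% lower. None of the 5 had an unadjusted p under 0.05 at 3 weeks, and DESeq2 called none there either. Glis3 was also the member with the largest log2 fold change at 3 weeks. Levels are in CPM, the counts of a library scaled by its TMM-adjusted size, and log2 fold changes are HF+SD minus CD.

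Glis3 stood at 31.7, 18.8, 11.4 and 32.1 CPM in M22, M43, M45 and M48, the 6-week CD mice. It stood at 49.7, 89.2, 59.6 and 74.1 CPM in the HF+SD mice M5, M18, M34 and M35. Each HF+SD mouse was above each CD mouse, which was so for 13.8% of all tested genes. The mean rose from 23.5 ± 10.1 to 68.2 ± 17.2 CPM (SD, n = 4 each), which is 2.90-fold, and the log2 fold change was 1.54 (standard error 0.33, edgeR adjusted p = 0.0129). An exact permutation test on log2 CPM (two-sided) gave p = 0.0286, the smallest that 4 against 4 mice allow. Omitting any 1 of the 8 mice left it at 1.29 to 1.72, with edgeR adjusted p between 0.00613 and 0.0416.

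The rise of Glis3 at 6 weeks kept its direction on the other scales and lost its call on some of them. Scaled to the epithelial genes, the diets overlapped, with the HF+SD mouse M5 at 34.5 CPM below the CD mouse M48 at 41.4. On that scale, where the median of all genes is -0.46, the log2 fold change was 1.16 (edgeR adjusted p = 0.0303). With the muscle covariate it was 1.20 (edgeR adjusted p = 0.0942). Without M43, M45 and M48 it was 1.10 (edgeR adjusted p = 0.0999), a comparison of M22 alone with the 4 HF+SD mice.

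At 3 weeks Glis3 was at 36.4, 87.2, 128 and 28.8 CPM in the CD mice M53, M54, M55 and M96. On the HF+SD it was at 162, 85.5, 120 and 149 CPM in M7, M19y, M20y and M31. The groups overlapped because M54 and M55 reached the HF+SD range, and the CD mice spread more than 4-fold among themselves. The means were 70.1 ± 46.6 and 129 ± 33.97 CPM (SD, n = 4 each), 1.84-fold, with a log2 fold change of 0.88 (standard error 0.43, edgeR adjusted p = 0.195) and an interval of -0.08 to 1.84 at 95%. The call turned on 1 mouse. Without M55 the log2 fold change was 1.35 (edgeR adjusted p = 0.0307), and over all 8 omissions it was 0.62 to 1.35. It was also called on the epithelial scale, at 1.18 (edgeR adjusted p = 0.0285, median of all genes 0.19). That scale lowered M55 from 128 to 89.6 CPM, so this call is not separate from that mouse. With the muscle covariate Glis3 was called at 1.96 (edgeR adjusted p = 0.0311), though muscle genes were at most 0.0260% of the counts. The muscle scores were -0.71, -1.71, -1.85 and 0.81 in M53, M54, M55 and M96 and -0.10 to 0.62 on the HF+SD. The covariate thus partly followed the diet.

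M55 differed from the other 3 CD mice of its time point in both directions, a point picked out after its values were seen. It had the highest Glis3 level of the 4 and the lowest levels of Nkx2-1, Pax8, Foxe1 and Hhex. It also had 157 CPM of Tshr, the TSH receptor, where M53, M54 and M96 had 53.5, 70.9 and 48.3 and the HF+SD mice 150 to 214. Some other thyroid genes in M55 stayed below the HF+SD mice, and some did not. Slc5a5 was at 418 CPM against 1414 to 1959, and Dio1 at 388 against 864 to 888. Iyd was at 855 CPM against 1102 to 1206, and Cdh16 at 822 against 1226 to 1411.

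**Figure D1:**
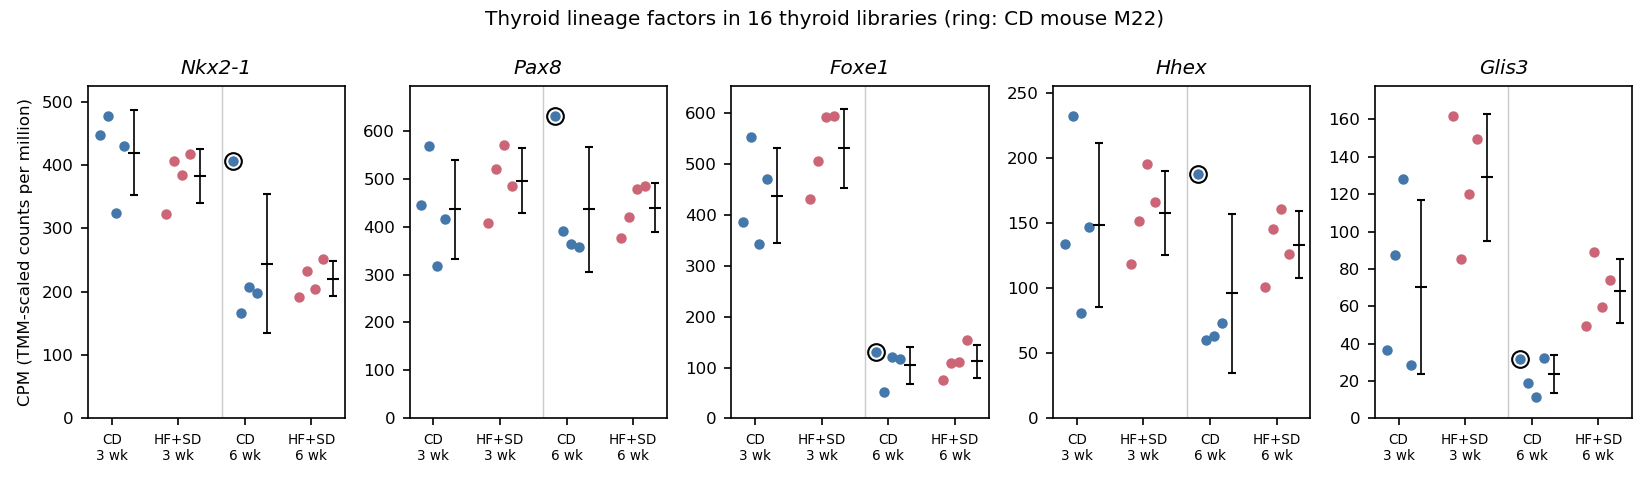
Level of each thyroid lineage factor in every library, in CPM on linear axes that start at 0. Points are mice (blue CD, red HF+SD), the black bars beside them are the mean ± SD of 4 mice, and a ring marks the 6-week CD mouse M22. Glis3 is the panel in which the 6-week groups do not overlap, with CD mice at 11.4 to 32.1 CPM and HF+SD mice at 49.7 to 89.2 CPM, and M22 is the highest CD point at 6 weeks for Nkx2-1, Pax8, Foxe1 and Hhex.

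Nkx2-1, a homeodomain factor that acts on the promoters of Tg and Tshr, was not called at either time. At 6 weeks its level was 407, 166, 207 and 198 CPM in M22, M43, M45 and M48. On the HF+SD it was 191, 233, 205 and 252 CPM in M5, M18, M34 and M35. The HF+SD mice lay inside the CD range, all of them below M22. The log2 fold change was -0.15 (standard error 0.27, edgeR adjusted p = 0.731) with an interval of -0.76 to 0.46. It was 0.22 without M22 (edgeR adjusted p = 0.315) and -0.89 without M43, M45 and M48 (edgeR adjusted p = 0.0344), so the sign of this effect depended on which CD mice were used. With the muscle covariate it was -0.59 (edgeR adjusted p = 0.0989), and on the epithelial scale -0.51 (edgeR adjusted p = 0.174).

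At 3 weeks Nkx2-1 was at 448, 477, 324 and 430 CPM in the CD mice M53, M54, M55 and M96. It was at 323, 407, 384 and 418 CPM in the HF+SD mice M7, M19y, M20y and M31. The groups overlapped across most of their range. Its log2 fold change was -0.13 (standard error 0.13, edgeR adjusted p = 0.523), with an interval of -0.42 to 0.16. The C cells of the thyroid also express Nkx2-1, and 7 of 10 C cell marker genes were lower on the HF+SD at each time point, with 1 higher at 3 weeks and none at 6 weeks. At 6 weeks 5 of the 10 were lower with the muscle covariate, as were 5 without M43, M45 and M48, and at 3 weeks 1 was lower on the epithelial scale. Their summed level at 6 weeks was 6157 to 11451 CPM in CD mice and 4138 to 5042 CPM in HF+SD mice, and at 3 weeks 3614 to 6994 against 2930 to 4247 CPM. The part of the C cells in the Nkx2-1 values was not tested.

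Pax8 is a paired domain factor and the partner of Nkx2-1 on the thyroid promoters. With all mice, TMM scaling and no covariate, it had the least diet effect of the 5 at 6 weeks. It was at 631, 391, 364 and 358 CPM in M22, M43, M45 and M48 on the CD. On the HF+SD it was at 376, 419, 478 and 485 CPM in M5, M18, M34 and M35. The groups overlapped, and the 2 means were nearly the same at 436 ± 131 and 440 ± 51.7 CPM (SD, n = 4 each). The log2 fold change was 0.01 (standard error 0.21, edgeR adjusted p = 0.974), and the interval of -0.47 to 0.49 leaves room for changes of about that size either way. It was 0.25 without M22, and -0.53 without M43, M45 and M48 (edgeR adjusted p = 0.141). With the muscle covariate it was -0.36 (edgeR adjusted p = 0.167).

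At 3 weeks Pax8 was at 446, 568, 317 and 415 CPM in M53, M54, M55 and M96 on the CD. It was at 408, 520, 571 and 485 CPM in M7, M19y, M20y and M31 on the HF+SD. The ranges overlapped except for M55 below and M20y just above. Its log2 fold change was 0.18 (standard error 0.17, edgeR adjusted p = 0.495), with an interval of -0.19 to 0.56.

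Foxe1, a forkhead factor needed for the descent of the thyroid bud and active on the Tg promoter, was not called at either time. At 6 weeks it was at 130, 51.1, 120 and 116 CPM in M22, M43, M45 and M48. On the HF+SD it was at 74.7, 108, 112 and 153 CPM in M5, M18, M34 and M35. M43 was the lowest mouse and M35 the highest, with overlap between. The log2 fold change was 0.10 (standard error 0.31, edgeR adjusted p = 0.842), the interval was -0.59 to 0.79, and the value was -0.33 on the epithelial scale, -0.22 without M43, M45 and M48 and -0.019 with the muscle covariate.

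At 3 weeks Foxe1 was at 386, 555, 342 and 470 CPM in M53, M54, M55 and M96 on the CD. It was at 431, 507, 592 and 595 CPM in M7, M19y, M20y and M31 on the HF+SD. Both of the highest mice were on the HF+SD and both of the lowest on the CD, with overlap between. Its log2 fold change was 0.28 (standard error 0.16, edgeR adjusted p = 0.272), with an interval of -0.08 to 0.64. Gm12446, a gene on the opposite strand, overlaps Foxe1 in GENCODE M21. Its counts were 31.3 to 116% of those of Foxe1 at 6 weeks and 6.22 to 8.59% at 3 weeks. The strand setting of the counting is not stated, so reads of the pair may not be told apart, above all at 6 weeks.

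Hhex, a homeodomain factor that maintains the early thyroid bud and is also made by endothelial and blood progenitor cells, depended on M22 at 6 weeks. On the CD it was at 187, 60.0, 62.8 and 73.0 CPM in M22, M43, M45 and M48. The HF+SD mice M5, M18, M34 and M35 had 101, 145, 161 and 126 CPM. All 4 HF+SD mice were above 3 of the CD mice and below M22. The log2 fold change was 0.48 (standard error 0.37, edgeR adjusted p = 0.381), with an interval of -0.35 to 1.30. Without M22 it was 1.03 and called (edgeR adjusted p = 0.00306), which made 2 of the 5 factors called, and without M43, M45 and M48 it was -0.50 (edgeR adjusted p = 0.283). With the muscle covariate it was -0.16 (edgeR adjusted p = 0.692).

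At 3 weeks Hhex was at 134, 232, 80.5 and 147 CPM in M53, M54, M55 and M96 on the CD. It was at 118, 151, 195 and 166 CPM in M7, M19y, M20y and M31 on the HF+SD. The HF+SD mice lay inside the CD range. Its log2 fold change was 0.09 (standard error 0.28, edgeR adjusted p = 0.851), with an interval of -0.52 to 0.70. Endothelial marker genes rose at both times, 10 of 10 at 6 weeks and 9 of 10 at 3 weeks, and at 6 weeks 9 of 10 were still called without M43, M45 and M48. Their summed level at 6 weeks was 360 to 470 CPM in CD mice and 1268 to 1469 CPM in HF+SD mice, and at 3 weeks 587 to 739 against 1042 to 1526 CPM. The part of endothelial cells in the Hhex values was not tested.

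**Figure D2:**
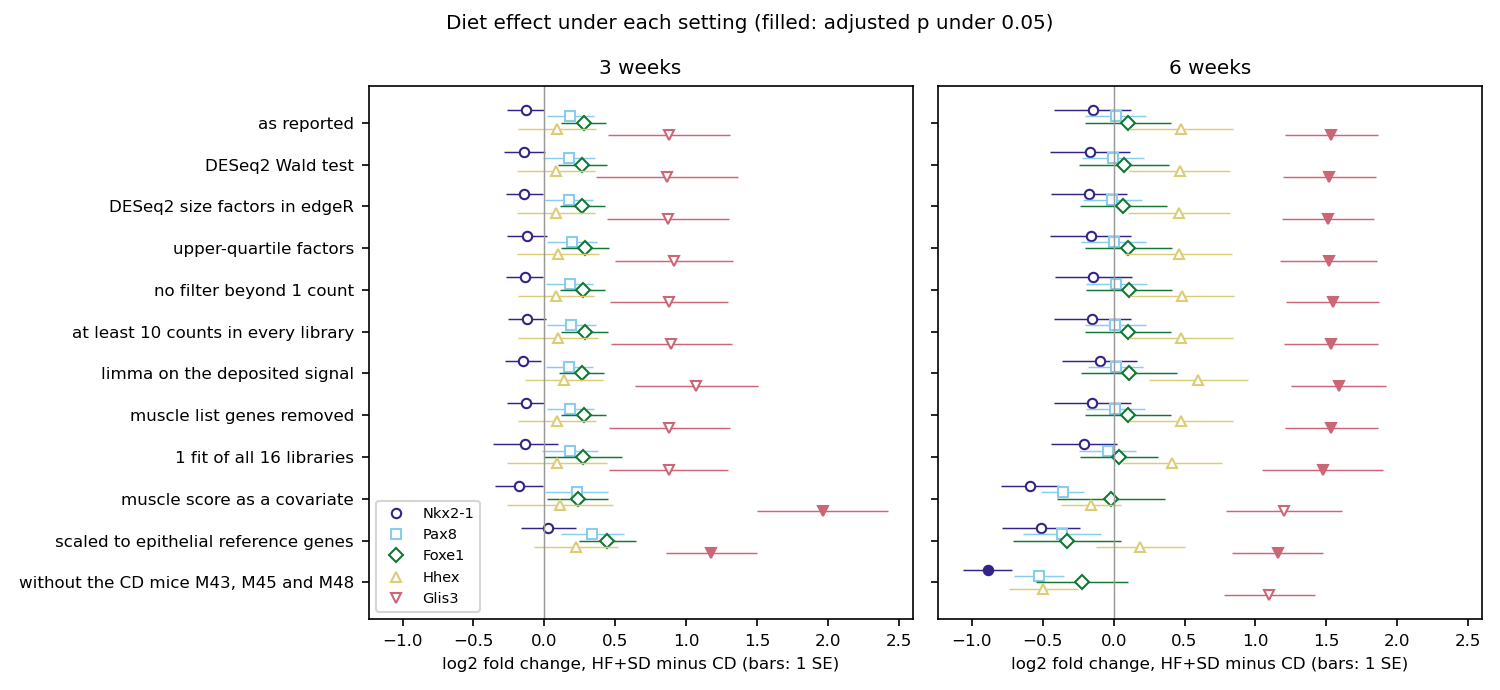
Log2 fold change of each factor, HF+SD minus CD, under each setting at 3 weeks (left) and 6 weeks (right), with bars of 1 standard error and filled symbols for adjusted p under 0.05. Glis3 is to the right of 0 in every row shown and between 1.10 and 1.59 at 6 weeks. Nkx2-1, Pax8, Foxe1 and Hhex shift to lower values at 6 weeks in the rows with the muscle covariate, the epithelial scale and without the CD mice M43, M45 and M48, the last of which was run at 6 weeks only.

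Whether the diet effect differed between 3 and 6 weeks was tested with an interaction term in 1 fit of the 16 libraries, where 0.0792% of 18929 genes were called. That share is not stable, since DESeq2 called 8.32% of its genes, and edgeR 14.1% without M22 and 6.70% without M43. None of the 5 factors was called, none had an unadjusted p under 0.05, and DESeq2 called none. The largest difference was that of Glis3, with an effect 0.60 higher at 6 weeks on the log2 scale (standard error 0.59, edgeR adjusted p = 0.592). The interaction was 0.33 for Hhex, -0.07 for Nkx2-1, -0.22 for Pax8 and -0.24 for Foxe1. The larger fold of Glis3 at 6 weeks was thus not separable from that at 3 weeks with these mice.

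A ratio of 2 factors within 1 library does not depend on how libraries are scaled, so all 10 pairs were compared at each time. At 6 weeks 4 of 10 ratios did not overlap between diets. For single genes, which is an unlike measure, 23.8% of those tested had CPM values that did not overlap. Of the 4, 3 were ratios to Glis3, against which 68.3% of 18244 other genes were also lower without overlap. These 3 are thus not particular to the lineage factors. The log2 ratio of Nkx2-1 to Glis3 was 3.68, 3.14, 4.18 and 2.63 in M22, M43, M45 and M48. It was 1.94, 1.39, 1.78 and 1.77 in the HF+SD mice M5, M18, M34 and M35. Each CD mouse was above each HF+SD mouse, M22 included, and the difference was -1.69 (standard error 0.36). The ratio of Pax8 to Glis3 differed by -1.57 and that of Foxe1 to Glis3 by -1.48, both without overlap, and that of Hhex to Glis3 by -0.99, with overlap. With M22 as the only CD mouse, the ratios to Glis3 differed by -1.96 for Nkx2-1, -1.60 for Pax8, -1.33 for Foxe1 and -1.58 for Hhex.

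The fourth was Nkx2-1 to Hhex, whose log2 ratio was 1.12, 1.47, 1.72 and 1.44 in M22, M43, M45 and M48. It was 0.92, 0.69, 0.35 and 1.00 in M5, M18, M34 and M35. M22 and M35 came closest to each other, and the difference was -0.70 (standard error 0.19), or -0.38 with M22 as the only CD mouse. Against Hhex, 5.17% of 18244 other genes were lower without overlap, and against Nkx2-1, 10.7% were higher without overlap. The exact two-sided permutation p of each of the 4 was 0.0286, the smallest possible, and 0.114 after adjustment over the 20 pair tests, so 0 of 20 passed the correction.

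At 3 weeks 1 of 10 ratios did not overlap, that of Nkx2-1 to Foxe1. Against Foxe1, 6.58% of 17233 other genes were lower without overlap, and against Nkx2-1, 13.4% were higher without overlap. For single genes, 23.6% of those tested had CPM values that did not overlap. The log2 ratio of Nkx2-1 to Foxe1 was 0.21, -0.22, -0.08 and -0.13 in the CD mice M53, M54, M55 and M96. It was -0.42, -0.32, -0.62 and -0.51 in the HF+SD mice M7, M19y, M20y and M31. Each HF+SD mouse was below each CD mouse, with a difference of -0.41 (standard error 0.11, exact permutation p = 0.0286, adjusted 0.114). The ratio of Nkx2-1 to Pax8 differed by -0.33 (exact permutation p = 0.0571, adjusted 0.163) and overlapped. Ratios to Glis3 differed by -1.22 to -0.81 at 3 weeks and all 4 overlapped. The ratio between Pax8 and Foxe1 moved least at 6 weeks, by -0.10, and by -0.09 at 3 weeks.

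**Figure D3:**
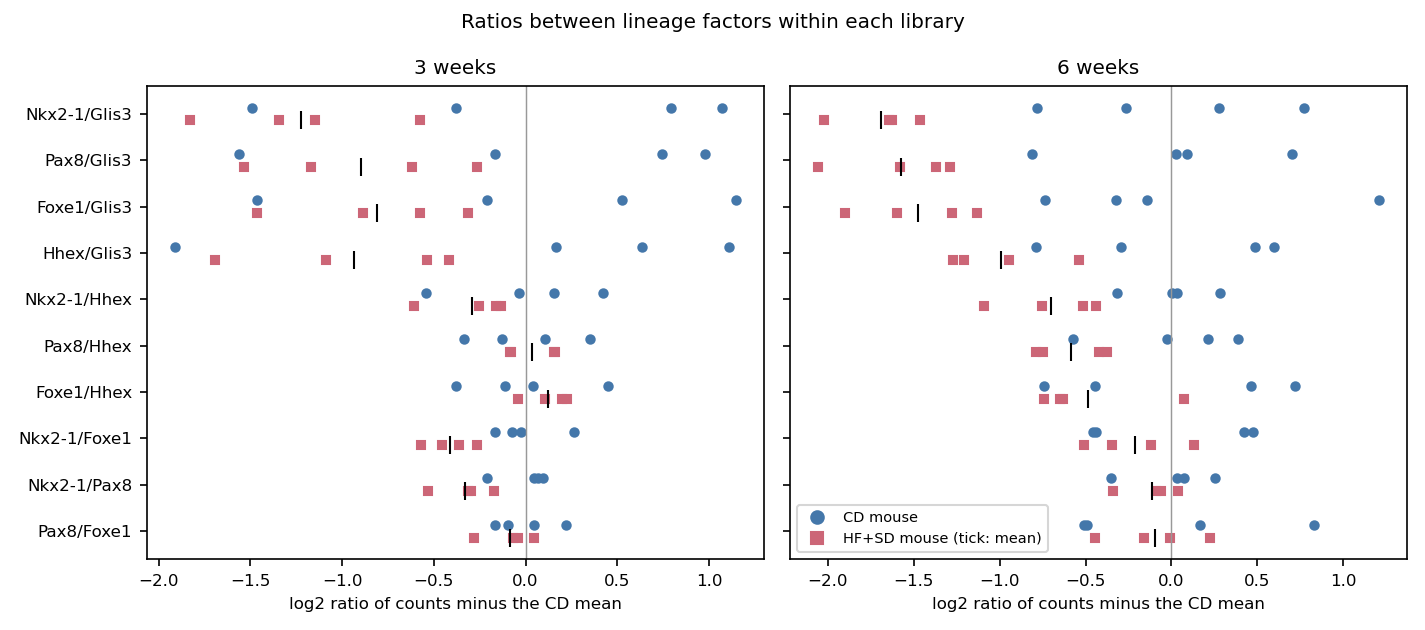
Log2 ratio of the counts of 2 lineage factors in each mouse, minus the CD mean of that ratio, at 3 weeks (left) and 6 weeks (right). Circles are CD mice, squares HF+SD mice and ticks their mean. At 6 weeks the ratios of Nkx2-1, Pax8 and Foxe1 to Glis3 and of Nkx2-1 to Hhex show no overlap between diets, and at 3 weeks only that of Nkx2-1 to Foxe1 shows none.

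Per kilobase of exon (GENCODE M21), the order of the levels was the same on both diets at each time. At 6 weeks on the CD it ran from Nkx2-1 at 86.0 CPM per kb through Pax8 at 71.9, Foxe1 at 37.3 and Hhex at 18.9 to Glis3 at 2.66. On the HF+SD it was 77.5, 72.6, 40.0, 26.4 and 7.71 CPM per kb. Nkx2-1 and Pax8 overlapped in both groups, as did Foxe1 and Hhex, while Pax8 was clear of Foxe1 and Hhex of Glis3. At 3 weeks Foxe1 came first, at 156 CPM per kb in CD mice and 189 in HF+SD mice, followed by Nkx2-1 at 148 and 135, Pax8 at 72.0 and 81.8, Hhex at 29.3 and 31.2 and Glis3 at 7.93 and 14.6. Foxe1 and Nkx2-1 overlapped on the CD and not on the HF+SD, and every other pair of neighbours was clear of each other. Foxe1 was thus at 438 ± 93.9 CPM at 3 weeks and 104 ± 36.0 CPM at 6 weeks on the CD, while Pax8 was at 437 ± 104 and 436 ± 131 CPM (SD, n = 4 each). The library names carry another prefix at each time point, so time and whatever that prefix marks cannot be told apart. The TMM scaling was also done within each time point, so CPM at 3 and 6 weeks do not share 1 scale.

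Of 13 thyroid differentiation genes, among them targets of these factors, 8 rose and 1 fell at each time. Their median was 1.32 at 6 weeks and 0.69 at 3 weeks, where the medians of all tested genes were -0.01 at both. Slc26a4, the apical anion exchanger pendrin, rose by 4.26 on the log2 scale at 6 weeks from under 1 CPM (edgeR adjusted p = 0.000172). Slc5a5, the iodide transporter NIS, rose by 2.49 (edgeR adjusted p = 0.00956). Duoxa1, a maturation factor of the dual oxidases at under 5 CPM, fell by 1.17 at 6 weeks and fell by 2.37 at 3 weeks. Tg was not called, with log2 fold changes of 0.45 and 0.04. At 6 weeks 6 of the 13 were higher and none lower with the muscle covariate, and also 6 and none without M43, M45 and M48, though not the same genes. Slc5a5 was called with the covariate at 1.79 (edgeR adjusted p = 0.0258) but not without the 3 mice, at 1.44 (edgeR adjusted p = 0.0813), and Iyd, an iodotyrosine deiodinase, was called without the 3 mice but not with the covariate. Slc26a4 was at 4.07 without the 3 mice (edgeR adjusted p = 0.0215).

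Set against Pax8 in the same library, 9 of the 13 genes were higher without overlap at 6 weeks on the HF+SD and none was lower, where 11.1% of 18244 other genes were higher against Pax8 without overlap. The mean log2 ratio of Cdh16, a thyroid cadherin that is a known Pax8 target, to Pax8 rose from -0.39 ± 0.17 to 1.26 ± 0.27 (SD, n = 4 each) without overlap. Against Nkx2-1 the count was 7 of 13 (10.7% of other genes), against Hhex 5 (2.67%) and against Foxe1 3 (3.54%). Against Glis3 it was 2 of 13, Slc5a5 and Slc26a4, with 4 lower (0.740% of other genes higher and 68.3% lower). At 3 weeks 8 of 13 were higher against Nkx2-1 (13.4% of other genes), 4 against Pax8 (4.29%), 3 against Foxe1 (3.59%), 3 against Hhex (3.01%) and 2 against Glis3 (0.458%). There 1 was lower against each of Nkx2-1 (1.83% of other genes lower), Pax8 (3.99%), Foxe1 (6.58%) and Hhex (1.09%). Against Glis3, 2 were lower (9.6%). These ratios are descriptions, with no test, and were added after the values were seen.

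Among the 13, Tshr ran closest to Glis3 across the mice. The root mean square difference of the 2 genes, in log2 CPM centred on each time point over 16 libraries, was 0.44, while Glis3 itself spread by 0.91 about its own means. The mean log2 ratio of Tshr to Glis3 at 6 weeks was 1.40 ± 0.56 in CD mice and 1.62 ± 0.53 in HF+SD mice, and at 3 weeks 0.32 ± 0.46 and 0.52 ± 0.43 (SD, n = 4 each).

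**Figure D4:**
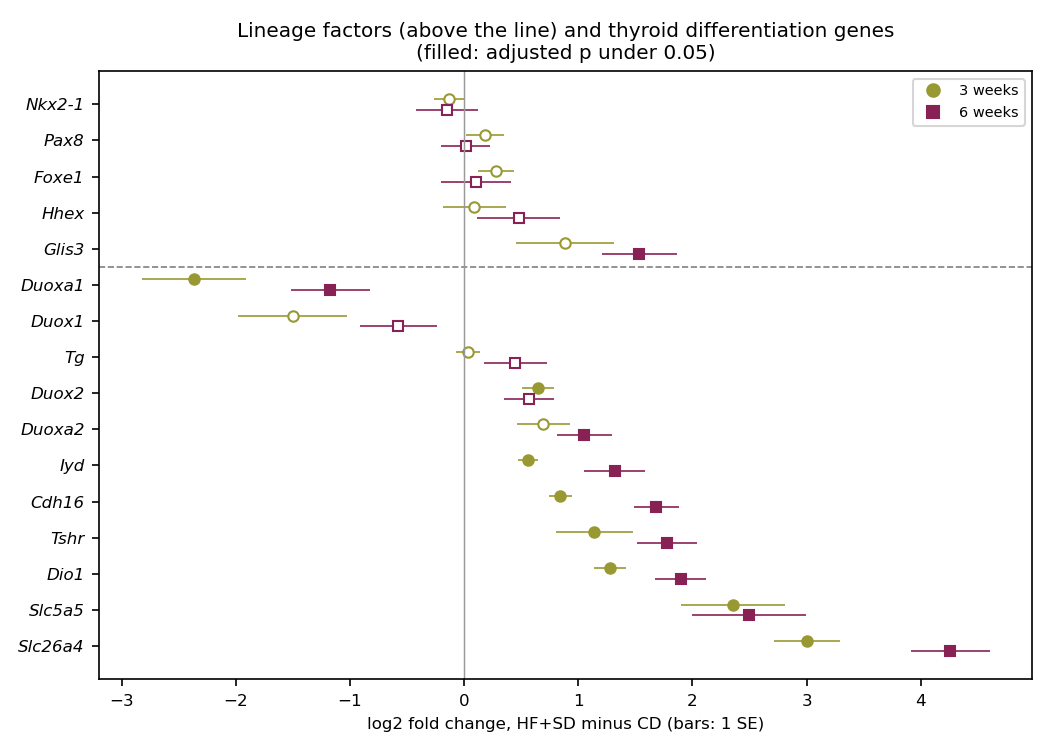
Log2 fold change, HF+SD minus CD, of the 5 lineage factors (above the dashed line) and of 11 of the thyroid differentiation genes (below) at 3 weeks (circles) and 6 weeks (squares), with bars of 1 standard error and filled symbols for adjusted p under 0.05. Nkx2-1, Pax8, Foxe1 and Hhex lie between -0.15 and 0.48, Glis3 lies at 0.88 and 1.54, and the differentiation genes reach 4.26 for Slc26a4 at 6 weeks.

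Over all 17024 genes tested at both times, those whose values ran most like each factor were named by the root mean square difference used above. The difference is in log2 units and tends to be larger for a factor that itself spreads more, which was by 0.29 for Nkx2-1, 0.26 for Pax8, 0.39 for Foxe1, 0.52 for Hhex and 0.91 for Glis3. Near Nkx2-1 were Tead3 and Pcgf2, at 0.112 to 0.119 log2 units. The nearest to Pax8 were Tfcp2, Six5 and Fgfr2 at 0.125 to 0.128, and to Foxe1 Mvb12b, Rara and Nacc2 at 0.187 to 0.192. Near Hhex were Tonsl and Mir5125 (ENSMUSG00000092981.3) at 0.249 and 0.258. Near Glis3 were Endou at 0.322, Cers6 at 0.390 and Gm31718 at 0.395. Among the factors themselves, Nkx2-1 and Pax8 differed by 0.1996, and Glis3 differed from the others by 0.853 to 0.972.

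Of 12 cofactors of the thyroid factors, 2 rose and none fell at 6 weeks, and the median was -0.18. Wwtr1, the coactivator TAZ that binds Pax8 and Nkx2-1, rose by 0.78 (edgeR adjusted p = 0.00676). Kcnip3, the calcium-binding repressor DREAM, was at 105, 63.2, 40.8 and 51.6 CPM in CD mice and 122, 191, 177 and 173 CPM in HF+SD mice at 6 weeks, a rise of 1.35 on the log2 scale without overlap (edgeR adjusted p = 0.0122). At 3 weeks Kcnip3 rose by 0.88 (edgeR adjusted p = 0.00556) and Tle1, a Groucho corepressor, fell by 0.29 (edgeR adjusted p = 0.0225), the other 10 were not called, and the median was -0.01. Without M43, M45 and M48, Wwtr1 was the 1 cofactor still called, at 0.93, and Kcnip3 was at 0.66 (edgeR adjusted p = 0.191). On the epithelial scale Wwtr1 was at 0.27 (edgeR adjusted p = 0.472), and there 1 cofactor was higher at 6 weeks and 2 were lower. Tle1 at 3 weeks was not called on that scale, at -0.11 (edgeR adjusted p = 0.727).

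Of 12 relatives in the same gene families, 5 were in the table and 2 were tested at each time. Nkx2-2, a homeodomain factor of neuroendocrine cells and the islet, rose by 1.07 at 6 weeks (edgeR adjusted p = 0.0254), from 9.32 to 21.3 CPM on the CD to 23.6 to 38.1 CPM on the HF+SD, and was at 0.38 at 3 weeks (edgeR adjusted p = 0.177). Without M43, M45 and M48 it was at 0.56, and with the muscle covariate at 0.66 (edgeR adjusted p = 0.166), not called in either. Glis2, the other relative tested, was at 0.04 and -0.16. Gm26973, which overlaps Nkx2-1 on the opposite strand, had 0.815 to 4.57% of its counts.

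Of 20 other factors of the pharyngeal arches and foregut, 18 were in the table and tested. At 6 weeks 8 fell and 2 rose, and the median was -0.67. Among those that fell were Eya1, by 2.90, and Eya4, by 2.49, both of which are also expressed in skeletal muscle. Eya1 was at 10.6, 11.4, 39.6 and 21.98 CPM in M22, M43, M45 and M48 and at 1.85 to 3.55 CPM on the HF+SD. With the muscle covariate 7 of the 18 were lower and 2 higher, and without M43, M45 and M48, 5 were lower and none higher. There Eya1 was at -1.93 (edgeR adjusted p = 0.0227), while Eya4 was at 0.85 (edgeR adjusted p = 0.119). The 2 that rose were Sox17, an endothelial and endoderm factor, by 1.69, and Prdm1 by 1.13. At 3 weeks 2 fell and none rose, Sox9 by 1.02 (edgeR adjusted p = 0.00625) and Foxa2, which opens foregut chromatin, by 0.60 (edgeR adjusted p = 0.0176). Foxa2 also fell at 6 weeks, by 0.75 (edgeR adjusted p = 0.0177). It was not called at 3 weeks on the epithelial scale, at -0.42 (edgeR adjusted p = 0.299), or at 6 weeks without M43, M45 and M48, at -0.79 (edgeR adjusted p = 0.140).

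Markers of other cells gave these counts. Of adipocyte genes 8 of 10 fell at each time, with a sum at 6 weeks of 1454 to 2544 CPM in CD mice and 565 to 1025 CPM in HF+SD mice. At 6 weeks 4 of the 10 were lower with the muscle covariate and 2 without M43, M45 and M48. Of 6 parathyroid genes 1 fell at 6 weeks and none was called at 3 weeks, at a sum of 83.7 to 16983 CPM over the 16 libraries. At 6 weeks 4 of the 6 were lower with the muscle covariate, 4 without the 3 mice and 6 on the epithelial scale. Of airway and oesophageal genes 2 of 8 rose at 6 weeks and 0 of 7 were called at 3 weeks, at a sum of 14.5 to 159 CPM. Of immune and thymic genes 2 of 6 rose and 1 fell at 6 weeks and 0 of 7 were called at 3 weeks. With the muscle covariate or without the 3 mice, no airway, immune or epithelial gene of these lists was higher at 6 weeks. Of the muscle genes 3 of 23 rose at 3 weeks. Of the 12 epithelial genes 2 rose at 6 weeks, and 1 rose and 4 fell at 3 weeks. Their part in the values of the lineage factors was not tested.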

How the data were processed

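Whole thyroids of 16 mice were analysed, 4 per diet and time point, at 30025256 to 48508653 counts per library. The authors deposited raw counts, the number of reads on each of 21640 genes, and a signal, the same counts divided by 1 size factor per library, used in 1 alternative only. The submitters' processing notes name mm39, Trim Galore 0.6.7, STAR, DESeq2 1.36.0 and R 4.1.0. The annotation, the counter and its strand setting are not stated in those notes or the paper. Identifiers without their version were matched to GENCODE M21, which named 20841 genes and left 799 unnamed. Gene lengths and overlaps come from there and promoters from RefSeq on GRCm38.p6, which is not the build of the counts, so no coordinates were joined.

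A legend of the paper counts 3 CD mice in its 6-week sequencing and does not say which was left out, so all 4 deposited were used here and each was omitted in turn. Each time point was fitted alone, HF+SD against CD, by edgeR 4.0.16 under R 4.3.3 (TMM, filterByExpr, glmQLFit and glmQLFTest), with Benjamini-Hochberg adjustment over all tested genes and calls at an adjusted p under 0.05, and single genes by an exact permutation test. Standard errors are the log2 fold change over the root of F. Pair ratios used counts plus 0.5. The 13 lists, the 5 members and the alternatives were chosen with earlier results of these data known. Genes named are the members, thyroid differentiation genes, the 3 called genes of each list with the largest absolute log2 fold change, genes overlapping a member, and the 3 genes most like each member. Alternatives were DESeq2 1.42.0, other scaling factors, filters, limma 3.58.1 on log2 of the deposited signal, 1 fit of 16 libraries, removal of muscle genes, a muscle score covariate, epithelial scaling and leaving out mice. The fit was tested on simulated data. Mice of 1 group differed by 16.7 to 1015 chi-square units per gene, so none was counted as a repeat. Some genes that the rule for named genes selects are not reported here, though list counts include them.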

Additional observations from a re-analysis of the deposited data

Results flagged for a closer look

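Within groups of 4 mice, 60 sets of values were checked for a mouse far from the other 3, by the gap to its neighbour over the whole range set against Dixon's critical value, and 5 were flagged. Chance flags about 1 in 20 such groups. Of the 5 flags, 3 fall on the CD mouse M22 at 6 weeks, for Nkx2-1 at 407 CPM, Pax8 at 631 CPM and Hhex at 187 CPM, each above the other 3 CD mice. Of the 4 CD mice, M22 also has the lowest share of skeletal muscle counts, at 0.114%. The log2 ratio of Nkx2-1 to Pax8 in the 3-week CD mouse M54, at -0.25, was far below those of the other 3, and the log2 ratio of Foxe1 to Hhex in the 6-week HF+SD mouse M35, at 0.28, was far above those of its group.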

How the results depend on the processing

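At 6 weeks 1 factor was called in all alternatives except the muscle covariate, with 0, and leaving out 1 mouse gave 1 to 2, the 2 without M22 (Glis3 and Hhex). Without M43, M45 and M48 the 1 called factor was Nkx2-1, not Glis3. The share of all genes called at 6 weeks was 10.9% with the covariate, 5.18% without the 3 mice, and 10.4 to 30.8% on leaving out 1 mouse, lowest without M34 and highest without M22. At 3 weeks 0 became 1 (Glis3) with the muscle covariate, with epithelial scaling and without M55, and leaving out 1 mouse gave 0 to 1. Pax8 at 6 weeks turned to -0.0031 with DESeq2, -0.0099 with its size factors in edgeR, -0.36 with the muscle covariate, -0.36 with epithelial scaling, -0.043 in 1 fit of 16 libraries, -0.53 without M43, M45 and M48, and -0.21 without M45 and M48, an alternative chosen after seeing the data. Foxe1 at 6 weeks turned to -0.019 with the muscle covariate, -0.33 with epithelial scaling and -0.22 without the 3 mice, and Hhex to -0.16 with the covariate and -0.50 without the 3 mice. Nkx2-1 at 3 weeks turned to 0.029 with epithelial scaling. The interaction of Hhex turned to -0.037 with epithelial scaling, -0.44 with the covariate and -0.63 without the 3 mice, the last also added later, and that of Glis3 to -0.023 and -0.22 with the first 2. Leaving out 1 mouse gave log2 fold changes at 6 weeks of -0.32 to 0.22 for Nkx2-1, -0.077 to 0.25 for Pax8, -0.16 to 0.26 for Foxe1 and 0.29 to 1.03 for Hhex. At 3 weeks it gave -0.24 to -0.06 for Nkx2-1, 0.06 to 0.33 for Pax8, 0.17 to 0.41 for Foxe1 and -0.11 to 0.39 for Hhex. For the interaction it gave -0.23 to 0.30 for Nkx2-1, -0.36 to 0.026 for Pax8, -0.47 to -0.07 for Foxe1, 0.04 to 0.90 for Hhex and 0.15 to 0.86 for Glis3. The cause of these shifts was not tested. No paired analysis was possible because the labels name mice and give no replicate numbers shared between groups. With 4 mice per group, the intervals of the factors not called still hold changes of up to 1.30 on the log2 scale at 6 weeks for Hhex.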
